A study of Danio rerio with 6 samples.

Results

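A set of 10 genes that mark or serve astroglia in the zebrafish (Danio rerio) was followed in whole embryos at 4 days post fertilization. They are gfap, fabp7a, fabp7b, slc1a2a, slc1a2b, slc1a3a, slc1a3b, glula, glulb and aqp4, taken by symbol from the 31452 genes listed, and all 10 were found. In Zv9, the build of the files, they lie on chromosomes 3 (gfap), 17 (fabp7a), 20 (fabp7b and aqp4), 7 (slc1a2a), 25 (slc1a2b), 5 (slc1a3a), 10 (slc1a3b), 2 (glula) and 6 (glulb). The 3 controls were pools of 10 embryos injected with a control morpholino, and the 3 morphants were pools of 10 embryos injected with a splice-blocking morpholino against glut12, a sugar transporter gene listed as slc2a12. Morpholinos are antisense oligomers that persist for some days after injection, so the morphants are a transient knockdown, and both groups had been injected. The age was the same in both groups, the labels name no strain, and uninjected embryos were not analysed here. Nothing in the labels says that the pools came from different clutches. The p-values therefore describe only how these pools varied, in part perhaps for technical reasons.

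Astroglia take up the glutamate that neurons release, turn it into glutamine and hand that back, and they buffer ions and water around synapses. In fish many of these tasks fall to radial glia, which also line the ventricles as progenitor cells, and in the retina to Müller glia. Of the genes followed here, gfap encodes the intermediate filament of astroglia, and the fabp7 paralogs encode the brain-type fatty acid binding protein of radial glia. The slc1a2 and slc1a3 paralogs encode glutamate transporters known in mammals as GLT-1 and GLAST. The glul paralogs encode glutamine synthetase, which is also made outside the nervous system, and aqp4 encodes a water channel that in mammals sits at astrocyte endfeet. The libraries are from whole embryos, so the cells that carried these transcripts were not resolved. Fewer cells of a type and less RNA per cell cannot be told apart in such samples.

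The values are read counts per gene that were normalised by library and rounded to whole numbers. Their totals ran from 11065259 to 11762915 in the controls and from 10397713 to 10744090 in the morphants, so every morphant total was lower. The estimated depth ran from 7550000 reads in control 1 to 15170000 in morphant 1. Control 1 stood apart: across 15942 genes, which are not independent replicates, its log2 values had r = 0.961 with control 2 and 0.955 with control 3, while controls 2 and 3 had 0.987 with each other. Morphant 1 was also apart from its group, though less so, with r = 0.981 and 0.978 to morphants 2 and 3, which had 0.992 with each other. For that reason each member's fold change was also estimated without control 1, as the plot of fold changes shows. The targeted gene slc2a12 was at 160, 145 and 143 in controls 1 to 3 and at 98, 97 and 90 in morphants 1 to 3. With its SE, the log2 fold change of slc2a12 was -0.65 ± 0.13 over 3 pools per group (limma adjusted p = 0.158). A splice-blocking morpholino need not lower the read count of its target.

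The comparison asked which astroglial transcripts differed between the glut12 morphants and the controls. In the pools the genes gfap, slc1a2b and glula, each with high counts, were lower in every morphant than in any control, by 18.1% to 22.8% on the log2(value + 1) scale. With few reads behind it, fabp7b was 2.99-fold lower on that scale. The gene aqp4, also on few reads, was 3.35-fold higher and higher in every morphant. The gene slc1a3b was higher in every morphant too, but its log2 fold change of 0.34 was 0.13 without control 1. For slc1a2a, slc1a3a, fabp7a and glulb the groups overlapped. None of the 10 genes passed adjustment over all 26082 genes tested (limma on log2(value + 1), Benjamini-Hochberg at 0.05, two-sided). This count is 0 higher against a background of 0.023% of all genes, and 0 lower against 0%. At an unadjusted limma p of 0.05, 4 members were lower and 2 higher, where the shares of all genes were 6.93% and 8.99%. The same shares are the background of the counts at that p given below for other lists. The test voom in limma, run on estimated reads, also called 0 of the 10, with 4 lower and 2 higher at an unadjusted p of 0.05. The count of higher members varied with 1 library left out, while the count of lower members stayed at 4 or 5. It was 1 higher without control 1, control 2, morphant 2 or morphant 3, and 3 without control 3. Over all genes the higher count varied too. It was 2346 with all libraries and 2053, 2427, 1173 and 1345 without control 1, control 2, morphant 2 and morphant 3. Without control 3 it was 2783. Every morphant was lower than every control for 4 members and higher for 2, and over all genes these shares were 10.2% and 11.6%.

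**Figure D1:**
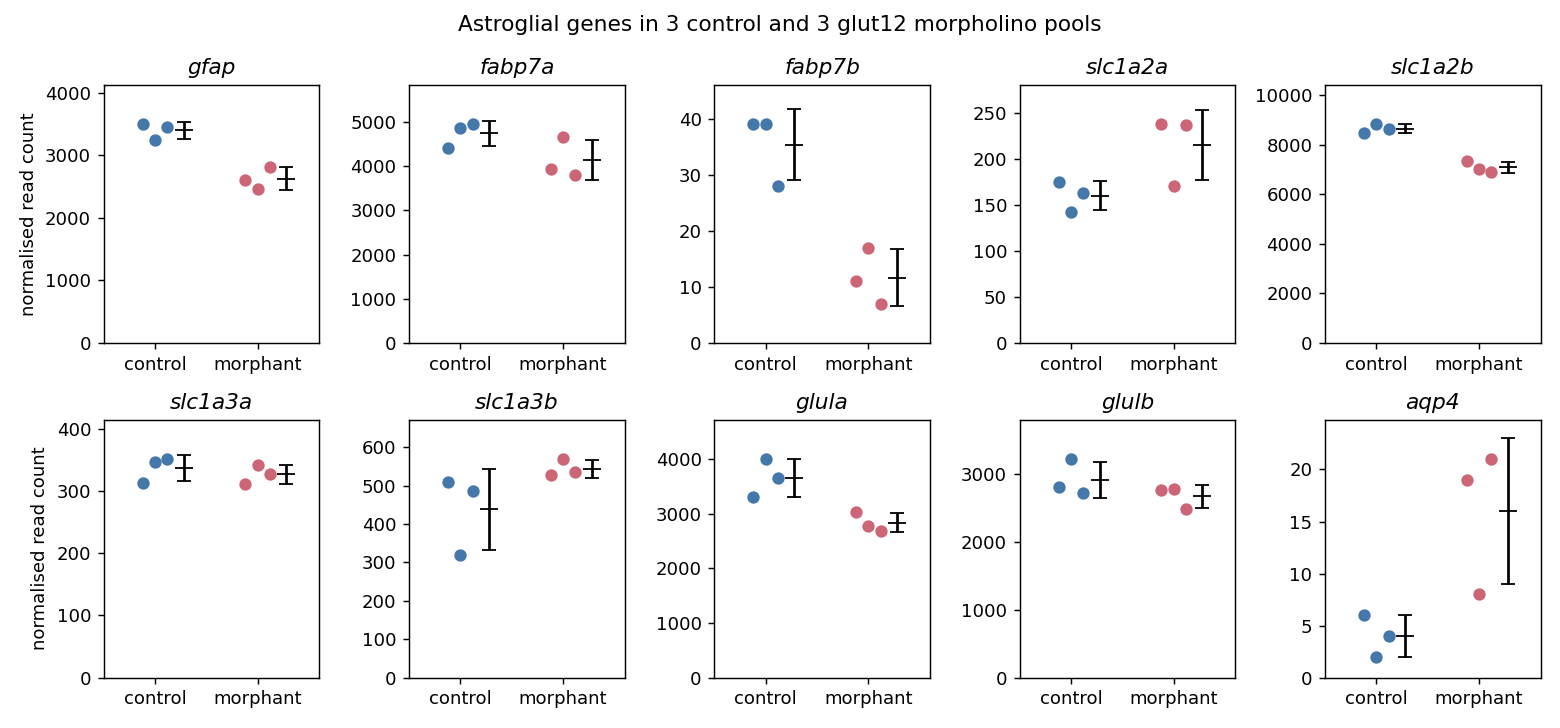
Normalised read count (vertical axes from 0, one scale per gene) of the 10 genes in each of the 3 control pools (blue) and 3 morphant pools (red), with the mean and SD of each group in black. The groups separate for gfap, fabp7b, slc1a2b and glula with morphants lower, and for slc1a3b and aqp4 with morphants higher.

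The filament gene gfap had normalised read counts of 3247, 3452 and 3493 in controls 1 to 3 and 2461, 2814 and 2601 in morphants 1 to 3. The highest morphant lay below the lowest control. The group means were 3397 ± 132 and 2625 ± 178 (SD, n = 3 per group). The log2 fold change was -0.37 ± 0.08 (SE), or 22.8% lower on the log2(value + 1) scale, with a 95% interval of -0.56 to -0.19. Its unadjusted p was 0.0016 and its adjusted p was 0.163 (limma). By unadjusted p it ranked 255 of 26082 genes. Control 1 was the lowest of the controls for gfap, and without it the log2 fold change was -0.41.

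The fatty acid binding protein genes of radial glia gave unlike values. The paralog fabp7a read 4867, 4951 and 4417 in control pools 1 to 3 and 4658, 3806 and 3944 in morphant pools 1 to 3. Morphant 1 lay within the control range and morphants 2 and 3 below it. Its log2 fold change was -0.20 ± 0.10 (SE), with a 95% interval of -0.43 to 0.03 and an adjusted p of 0.356 (limma). The paralog fabp7b read 39, 28 and 39 in control pools against 17, 7 and 11 in morphant pools. All 3 morphants lay below all 3 controls, on an estimated 25, 28 and 36 reads in control pools against 24, 10 and 10 in morphant pools. Morphants 2 and 3 thus rest on few reads, and the estimated reads of morphant 1, the deepest library, come close to those of the shallowest control. The log2 fold change was -1.58 ± 0.35 (SE), 2.99-fold lower on the log2(value + 1) scale, with a 95% interval of -2.39 to -0.78. Its adjusted p was 0.165 (limma), and with library weights estimated by limma it was 0.0488, the 1 setting in which a member was called (range over the alternatives 0.0488 to 0.551).

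Among the 13 fatty acid binding protein genes of the files, fabp7a and fabp7b included, 10 had a negative log2 fold change and 3 a positive one. Of these 0 were called (limma adjusted p), and 3 were lower and 0 higher at an unadjusted p of 0.05. Apart from fabp7b, these were fabp1a, a liver and gut-type gene, and fabp1b.2. The gene fabp1a read 185, 124 and 145 in control pools against 95, 89 and 81 in morphant pools (log2 fold change -0.75 ± 0.17, SE). The median of the list was -0.20, against 0 for all genes tested, and it was -0.11 without morphant 1 and -0.32 without morphant 3.

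The glutamate transporter genes also differed within pairs. The transporter gene slc1a2b read 8829, 8640 and 8494 in control pools against 7009, 6901 and 7353 in morphant pools. The groups lay well apart and both were narrow, with means of 8654 ± 168 and 7088 ± 236 (SD, n = 3 per group). The log2 fold change was -0.29 ± 0.08 (SE), or 18.1% lower on that scale, with a 95% interval of -0.46 to -0.12 and an adjusted p of 0.197 (limma). Its paralog slc1a2a read 143, 163 and 175 in control pools against 171, 237 and 238 in morphant pools. Morphant 1 lay just under control 3, and the other morphants lay above every control. The log2 fold change of slc1a2a was 0.41 ± 0.16 (SE), with a 95% interval of 0.04 to 0.78 and an adjusted p of 0.283 (limma).

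The gene slc1a3a read 346, 351 and 313 in control pools against 342, 327 and 311 in morphant pools. These ranges nearly coincide, and the log2 fold change was -0.04 ± 0.10 (SE) with a 95% interval of -0.27 to 0.18. A change of the size seen for gfap lies outside that interval. The paralog slc1a3b read 318, 485 and 510 in control pools against 569, 534 and 527 in morphant pools. Every morphant was higher than every control, but control 1 lay far under the other controls. On the log2 scale slc1a3b differed by 0.34 ± 0.17 (SE; adjusted p = 0.364, limma), and 0.13 without control 1.

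Glutamine synthetase was represented by a pair of genes. The gene glula read 4003, 3655 and 3305 in control pools against 2784, 2692 and 3037 in morphant pools. The highest morphant lay below the lowest control. Its means were 3654 ± 349 and 2838 ± 179 (SD, n = 3 per group), with a log2 fold change of -0.36 ± 0.09 (SE), 22.2% lower on that scale, and an adjusted p of 0.197 (limma). Without control 1, its highest control, the log2 fold change was -0.29. The gene glulb read 3216, 2717 and 2801 in control pools against 2773, 2474 and 2757 in morphant pools. Morphants 1 and 3 lay within the control range, and the log2 fold change was -0.12 ± 0.09 (SE) with a 95% interval of -0.34 to 0.09. Without control 1 the log2 fold change of glulb was -0.05, so most of its difference rests on that library.

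The water channel gene aqp4 read 2, 4 and 6 in control pools against 8, 21 and 19 in morphant pools. Every morphant was above every control, on an estimated 1, 4 and 6 reads in controls 1 to 3 and 11, 29 and 17 in morphants 1 to 3. The means were 4 ± 2 and 16 ± 7 (SD, n = 3 per group). The log2 fold change was 1.75 ± 0.48 (SE), 3.35-fold higher on the log2(value + 1) scale, with a 95% interval of 0.64 to 2.85 and an adjusted p of 0.201 (limma). Without control 1, the library with an estimated single read, it was 1.42. Of the 17 aquaporin genes in the files, aqp4 included, 12 had a negative log2 fold change and 5 a positive one. None was called (limma adjusted p), and 4 were lower and 1, aqp4 itself, higher at an unadjusted p of 0.05. The one with the lowest p, aqp7, which encodes a channel for water and glycerol, read 150, 167 and 170 in control pools against 110, 123 and 111 in morphant pools. The median of the list was -0.15, and -0.06 without morphant 1.

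**Figure D2:**
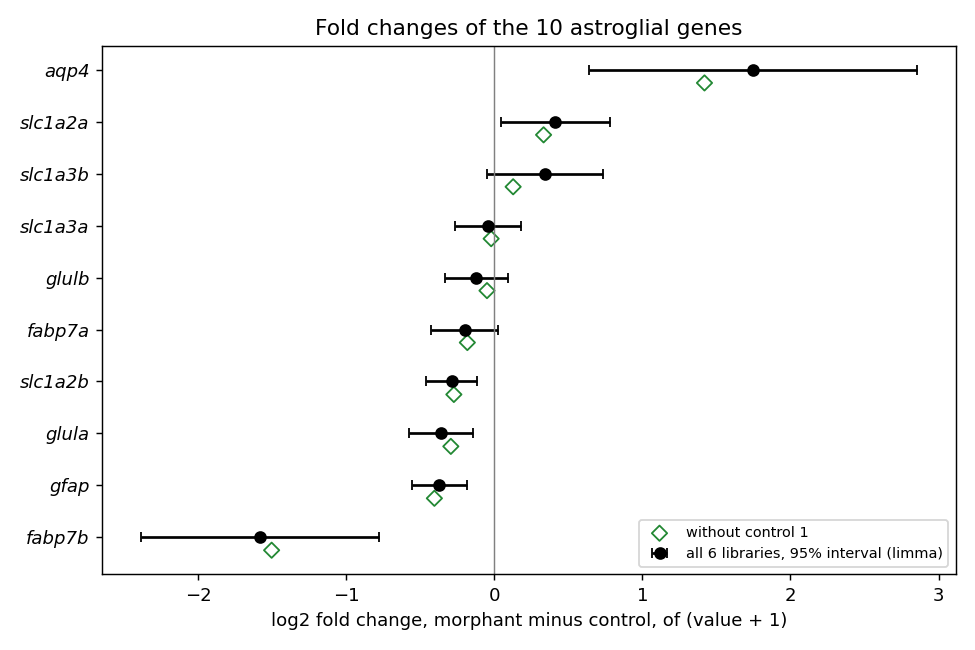
Log2 fold change of (value + 1), morphant minus control, of the 10 genes ordered by size. Black points and bars are the limma estimate and its 95% interval over all 6 libraries, and green diamonds the estimate without control 1. The interval lies below 0 for fabp7b, gfap, glula and slc1a2b, above 0 for slc1a2a and aqp4, and spans 0 for the other 4, before any adjustment for the number of genes.

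Differences between paralogs within one library hardly depend on how libraries were scaled. The log2(value + 1) of slc1a2a minus that of slc1a2b was -5.94, -5.72 and -5.59 in control pools against -5.35, -4.86 and -4.94 in morphant pools. The difference between the groups was 0.70, with no overlap. For fabp7a minus fabp7b the values were 6.93, 7.42 and 6.79 in control pools against 8.02, 8.89 and 8.36 in morphant pools, a difference of 1.38. For glula minus glulb they were 0.32, 0.43 and 0.24 in control pools against 0.01, 0.12 and 0.14 in morphant pools, a difference of -0.24. For slc1a3a minus slc1a3b they were 0.12, -0.47 and -0.70 in control pools against -0.73, -0.71 and -0.76 in morphant pools, a difference of -0.38. The groups did not overlap for any of the 4 pairs, although for slc1a3 control 3 nearly touched morphant 2 and control 1 carried most of the difference (-0.15 without it). The pairs are made of the member values given above, and no share of other gene pairs was computed. This count therefore has no background and adds no separate evidence. The exact two-sided permutation p was 0.1 for each pair, and 0.1 after adjustment over the 4 pairs, which is the smallest that 3 against 3 libraries can give. How reads matching more than 1 gene were counted is not given in the sources used here, so the split between paralogs is uncertain to that degree.

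**Figure D3:**
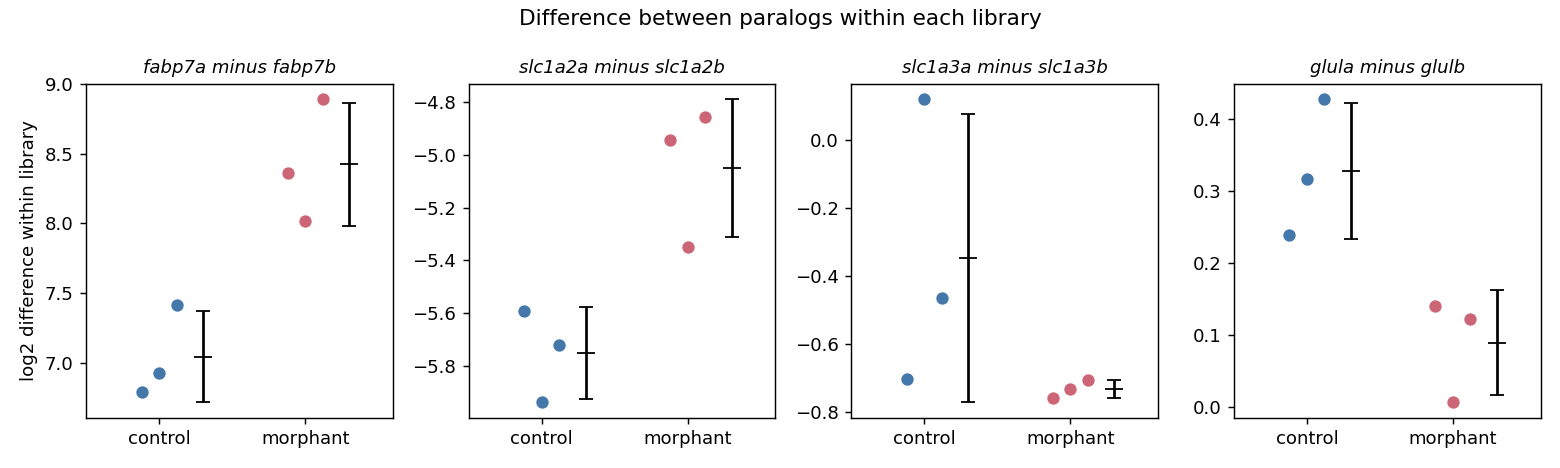
Difference of log2(value + 1) between the members of each paralog pair within each library (vertical axes, one scale per pair), for control pools (blue) and morphant pools (red), with group mean and SD in black. The fabp7 and slc1a2 pairs lie higher in morphants (by 1.38 and 0.70) and the slc1a3 and glul pairs lower (by 0.38 and 0.24).

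As a set, the 10 genes had 7 negative and 3 positive log2 fold changes, the median being -0.16, where 50.1% of all genes tested were negative and the median was 0. The median was -0.12 without control 1, -0.11 without morphant 2 and -0.22 without morphant 1. Their summed value was 25010, 24446 and 23553 in control pools against 20792, 19813 and 20798 in morphant pools. Per 1000000 of the library total, it was 2126, 2135 and 2129 in control pools against 1935, 1906 and 1973 in morphant pools. The controls differed little from each other, and every morphant was lower. This sum is carried by slc1a2b, fabp7a, gfap and the glul genes and says little of the scarce members. Scaling the libraries to equal totals moved the median of all genes by 0.11. On that scale gfap was at -0.26, glula at -0.25, slc1a2b at -0.18 and fabp7b at -1.48 (log2 fold changes), or -0.37, -0.36, -0.29 and -1.59 relative to the shifted median. Likewise aqp4 was at 1.84, slc1a2a at 0.52 and slc1a3b at 0.45, or 1.73, 0.41 and 0.34 relative to it. At an unadjusted limma p of 0.05, all genes split into 1808 lower and 2346 higher as deposited and 795 and 3793 on that scale, where the members split into 4 and 3. There the log2 fold change of slc1a3a turned from negative to positive, at 0.070.

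The genes with the profile nearest to that of gfap, slc1a2b and glula were looked up among 14085 others with a mean of at least 50. Genes listed only under a clone name or a gene ID were left out of this search. Likeness was the root mean square difference of centred log2 values over the 6 libraries, in which the group difference itself takes part. For gfap the nearest were ppp1r1c (0.022), atpv0e2 (0.033) and IKBIP (0.039), where the median gene lay at 0.24. For slc1a2b they were esyt3 (0.022), nxph1 (0.027) and WDSUB1 (0.029), with a median of 0.20. For glula they were irx1b (0.030), myl12.1 (0.032) and chmp2bb (0.034), with a median of 0.24. Within the set of 10, slc1a2b and glula lay nearest to each other (0.078), followed by gfap and slc1a2b (0.095).

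Other genes of radial glia and astroglia were examined in a list of 32 genes. Of these 0 were called over all genes (limma adjusted p), 6 were lower and 4 higher at an unadjusted p of 0.05, and 21 were negative with a median of -0.12. The growth factor gene mdka, midkine, read 3909, 3239 and 3257 in control pools against 2762, 2477 and 2417 in morphant pools (log2 fold change -0.44 ± 0.10, SE). Both Notch receptor genes named by the rule lay the other way, as did the rows listed as notch1a, whose groups overlapped. The her genes of the list all had negative log2 fold changes, from -0.37 for a her4.2 row to -0.02 for her9. Their groups overlapped except in the other her4.2 row, which was lower in every morphant. The gene notch1b read 125, 224 and 272 in control pools against 355, 458 and 452 in morphant pools (log2 fold change 1.09 ± 0.26, SE). The gene notch3 read 1337, 1505 and 1661 in control pools against 1799, 1979 and 1837 in morphant pools (log2 fold change 0.32 ± 0.10, SE). The astroglial gene ndrg2 read 142, 279 and 388 in control pools against 520, 551 and 573 in morphant pools (log2 fold change 1.14 ± 0.31, SE). In this list every morphant lay below every control for 5 genes and above for 3, where the shares of all genes were 10.2% and 11.6%. Among the lower ones, the filament gene vim read 1003, 1055 and 936 in control pools against 822, 864 and 812 in morphant pools. Its log2 fold change was -0.26 ± 0.08 (SE). The 3 higher ones were notch1b, notch3 and ndrg2, and in each of these control 1 was the lowest of all 6 libraries. Without control 1 the log2 fold changes of notch1b, notch3 and ndrg2 were 0.76, 0.24 and 0.73. The summed value of the list was 23278 to 23634 in the controls and 21937 to 22911 in the morphants.

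A second list held genes of glutamate and glutamine handling beyond the members. Of 20 such genes 14 were positive and 6 negative, with a median of 0.05, which ran from 0.01 (without morphant 3) to 0.20 (without morphant 1) with 1 library left out. None was called (limma adjusted p), and 3 were higher and 1 lower at an unadjusted p of 0.05. The lower one, the transporter gene slc1a8a, read 229, 191 and 199 in control pools against 151, 156 and 148 in morphant pools (log2 fold change -0.44 ± 0.12, SE). The vesicular glutamate transporter gene slc17a6a read 17, 121 and 184 in control pools against 207, 322 and 317 in morphant pools, with control 1 far below all the others. Its more abundant paralog slc17a6b read 1061, 1084 and 1175 in control pools against 1062, 1158 and 1199 in morphant pools (log2 fold change 0.04 ± 0.08, SE). The glutaminase gene glsa read 56, 96 and 104 in control pools against 106, 125 and 138 in morphant pools. One of the rows listed as slc1a5, a neutral amino acid transporter gene, read 95, 143 and 168 in control pools against 181, 184 and 191 in morphant pools. In slc17a6a, glsa and that slc1a5 row every morphant exceeded every control, and control 1 was the lowest library. The list held 5 rows with every morphant higher and 1 with every morphant lower, where the shares of all genes were 11.6% and 10.2%. The 5 include both rows listed as slc1a5 and also slc1a6, and control 1 was the lowest library in all 5. The log2 fold changes of slc17a6a, glsa and that slc1a5 row were 1.91, 0.56 and 0.49 with all libraries and 0.89, 0.29 and 0.26 without control 1.

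Markers of other cells of the nervous system were read beside the astroglial genes. Of 17 neuronal genes 10 were negative and 7 positive, with a median of -0.01 that took either sign with 1 library left out (-0.03 to 0.03), and none was listed at 0 in any library. Their summed value was 29722 to 31469 in the controls and 29885 to 31498 in the morphants, ranges that overlap. None was called (limma adjusted p), and 3 were lower and 1 higher at an unadjusted p of 0.05. The neuronal gene with the lowest p, tubb5, a tubulin gene, read 4870, 4983 and 4559 in control pools against 4179, 3837 and 3905 in morphant pools. Its log2 fold change was -0.27 ± 0.08 (SE). The other lower ones were snap25b (-0.31 ± 0.11) and stmn2a (-0.26 ± 0.11), and in these too every morphant was lower than every control. The higher one, elavl4, read 1089, 1609 and 1644 in control pools against 1866, 1913 and 1771 in morphant pools. Its log2 fold change was 0.38, and 0.18 without control 1, its lowest library. Every morphant also exceeded every control for elavl3 (log2 fold change 0.75 ± 0.34, SE), where control 1 was again the lowest. It read 737, 1897 and 2106 in control pools against 2310, 2531 and 2416 in morphant pools. In this list every morphant was higher than every control for 3 genes and lower for 3, where the shares of all genes were 11.6% and 10.2%. The mean log2(value + 1) of the 10 astroglial genes minus that of the neuronal genes was -0.70, -0.74 and -0.65 in control pools against -0.78, -0.82 and -0.74 in morphant pools. The group means differed by -0.08, and control 2 lay just below morphant 3, so the groups overlapped. Each gene weighs the same in this mean. The scarce aqp4 and fabp7b (log2 fold changes 1.75 and -1.58) therefore move it more than gfap, glula and slc1a2b (-0.37, -0.36 and -0.29). It says little of those abundant genes relative to neurons.

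Müller glia of the retina share gfap and glula. Of 10 genes of the retina and Müller glia, 8 were negative with a median of -0.19, and their summed value was 45934 to 57986 in the controls and 28176 to 43566 in the morphants. The photoreceptor genes rho and opn1sw1 made up 82.3% to 92.3% of that sum, which was 28176, 42224 and 43566 in morphants 1 to 3. The log2 fold change of rho was -0.58, and -0.29 without morphant 1. That of opn1sw1 was -0.41, and -0.19 without morphant 1. The other 8 genes summed to 4484, 4461 and 3977 in control pools against 4987, 3740 and 3556 in morphant pools, where morphant 1 was the highest library. That high sum came from rpe65a and rlbp1b, the 2 genes of the list with a positive log2 fold change. In morphant 1 rpe65a was at 1445 and rlbp1b at 690. In the other libraries rpe65a lay between 613 and 863 and rlbp1b between 169 and 323. None was called (limma adjusted p), and 3, namely rx1, crx and rho, were lower and 0 higher at an unadjusted p of 0.05. Over all genes the shares at that p were 6.93% lower and 8.99% higher. The Müller glia gene rlbp1a read 369, 356 and 337 in control pools against 302, 367 and 347 in morphant pools, with groups that overlapped. The transcription factor gene rx1 read 430, 376 and 338 in control pools against 215, 334 and 300 in morphant pools, lowest in morphant 1, and its log2 fold change was -0.45, or -0.26 without morphant 1. Among the astroglial genes gfap was also lowest in morphant 1, while slc1a2b and glula were lowest in morphant 2. The part of retinal cells in the lower values was not tested.

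Of 10 oligodendrocyte and Schwann cell genes 8 were negative, with a median of -0.18 (-0.08 without morphant 1 and -0.27 without morphant 3) and summed values of 3330 to 3612 in the controls and 2869 to 3200 in the morphants. None was called (limma adjusted p), and 3 were lower and 1 higher at an unadjusted p of 0.05. The one with the lowest p, cldnk, a claudin gene of myelinating glia, read 201, 160 and 174 in control pools against 125, 128 and 112 in morphant pools. Of 7 microglia and macrophage genes 5 were positive, and 0 were called (limma adjusted p). Their median was 0.17, but 0.04 without control 1 and -0.04 without morphant 1. The gene at that median was p2ry12, listed as CU571333.2 and near the floor. It read 2, 13 and 5 in control pools against 11, 5 and 4 in morphant pools, with the same mean of 6.67 in both groups. Leaving out morphant 2 or morphant 3 gave 0.29 or 0.33. At an unadjusted p of 0.05 only coro1a, an actin-binding protein gene of leukocytes, was lower and 0 were higher. It read 159, 164 and 152 in control pools against 126, 114 and 119 in morphant pools. The gene csf1ra lay the other way, at 48, 149 and 136 in control pools against 159, 157 and 160 in morphant pools. Its log2 fold change was 0.67, and 0.16 without control 1. The summed value of the microglia list was 7221 to 8192 in the controls and 8187 to 11630 in the morphants. The apolipoprotein gene apoeb, which other tissues also express, made up 90.1% to 93.1% of that sum. Its log2 fold change was 0.31, and 0.16 without morphant 1. The other 6 genes summed to 745, 684 and 718 in control pools against 799, 782 and 791 in morphant pools. The part of these cell types in the astroglial values was not tested.

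**Figure D4:**
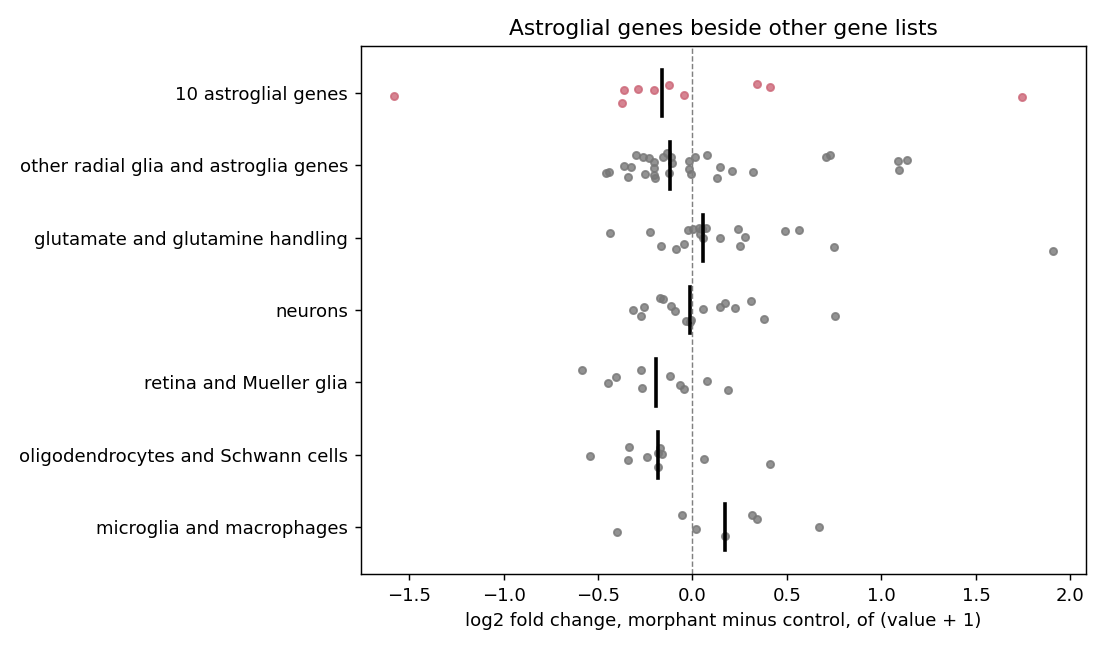
Log2 fold change of (value + 1), morphant minus control, of each gene (points) in the set of 10 astroglial genes (red) and 6 other lists (grey), with the list median as a black bar and 0, the median of all genes tested, as a dashed line. The astroglial median lies at -0.16, those of neurons and of glutamate handling at -0.01 and 0.05, and those of the oligodendrocyte and retinal lists at -0.18 and -0.19.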

How the data were processed

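RNA of 6 pools was sequenced, and each pool's group and number come from its title. The deposited value of a gene is treated as a score: a read count divided by a library size factor and rounded, a reading that rests on the values and on an empty size factor entry in the file footers. The submitters' processing notes name the build Zv9. For the aligner, the counter and the strand setting, the answer is not given in the sources used here. What 1 read is worth was estimated from the pattern of unused and doubled low values and was 0.708 to 1.56 per library. Totals over that worth gave the depths. Exact reads cannot be recovered after rounding, so no test on exact counts was run, and voom used the estimated reads.

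The filter kept genes that reached 1 in 3 or more libraries. Group was the only term of a fit of log2(value + 1) in limma 3.58.1 (R 4.3.3), which used a mean-variance trend and Benjamini-Hochberg adjustment over 26082 genes. The fit was also run on simulated reads with no outlying library and with changes only in genes of higher counts. That run therefore says nothing of control 1 or of scarce genes such as fabp7b and aqp4. Fold changes understate those of low genes. Paralog differences were compared by exact permutation. The 15 alternatives were other scalings, filters, pseudocount, trend, weights, voom on estimated reads, the replicate block and each library left out.

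The members, the 8 other lists and the tests were chosen with earlier results of these data known. Named were all members, slc2a12, and up to 4 genes of each other list with the lowest unadjusted p. Outside the astroglial and glutamate lists, values are given mainly for the first of these, for brevity. Also named were the 3 genes nearest in profile to gfap, slc1a2b and glula, among genes not listed only under a clone name or gene ID. Genes named beside a marker list outside this rule, such as rlbp1a, were chosen after their values were seen. List entries were matched by symbol as deposited or, failing that, by the current symbol of the gene ID. Rows that share a symbol but not a gene ID were counted as separate genes.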

Additional observations from a re-analysis of the deposited data

How the results depend on the processing

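The count of called members was 0 in each direction under all 15 alternatives, except that library weights called 1 lower gene, fabp7b. The median log2 fold change of the members was -0.050 with equal library totals, where that of all genes moved from 0 to 0.11. With 1 library left out the median of the members ran from -0.22 (without morphant 1) to -0.11 (without morphant 2). With equal totals slc1a3a reversed to 0.070, and with 1 library left out fabp6, a gut-type gene of the fatty acid binding protein list, ran from -1.25 (without morphant 3) to 0.013 (without morphant 1), where it reversed. The other members kept their direction in every alternative that tested them, and aqp4 was not tested under the stricter filter (at least 10 in 3 libraries). Over the alternatives the log2 fold change ran from -0.42 to -0.26 for gfap, from -0.32 to -0.18 for slc1a2b, from -0.43 to -0.25 for glula, from -1.87 to -1.29 for fabp7b and from 1.42 to 2.15 for aqp4. With the replicate block 0 members were called and the median was -0.16. Over all genes limma called 6 higher and 0 lower as reported, 2 and 0 with the block or a pseudocount of 0.1, 10 and 1 with equal totals, 11 and 3 under the stricter filter, 24 and 6 without the trend, 217 and 112 with library weights and 21 and 20 by voom. With 1 library left out, 1 to 4 were called higher and 0 to 2 lower. Same-numbered pools deviated together at r = 0.104, -0.059 and 0.118, so the numbers are not shown to pair them. Library weights also called slc2a12, mdka and notch1b (limma adjusted p = 0.0467, 0.0467 and 0.0392). Depth limits fabp7b and aqp4 most.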

Other observations

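Some genes in the lists were far lower in control 1 than in the other 5 libraries. The largest such gap was in slc17a6a, at 17 in control 1 and between 121 and 322 elsewhere, a log2 difference of -3.06 from controls 2 and 3. The bicarbonate transporter gene slc4a4b was at 36 in control 1 and at 114 and 161 in controls 2 and 3. The glutamate transporter gene slc1a6 was at 31 in control 1 and at 99 and 104 in controls 2 and 3. The neuronal gene elavl3 was at 737 in control 1 and between 1897 and 2531 in the others. A row listed as aqp8b read 2, 15 and 11 in controls 1 to 3, and csf1ra read 48, 149 and 136. The lists as a whole differed little: the median log2 difference of control 1 from controls 2 and 3 was 0.03 for the neuronal genes. It was -0.10 for glutamate and glutamine handling and 0.02 for the other radial glia and astroglia genes. The neuronal genes snap25a and stmn2a were highest in control 1, at 4042 and 2823. Of the 10 astroglial genes, slc1a3b had a log2 difference of -0.64 between control 1 and controls 2 and 3, and aqp4 one of -0.98. Over all 26082 genes tested, 2480 lay at least 1 log2 unit lower in control 1 than in controls 2 and 3, and 1173 at least 1 higher. These counts include genes with few reads, and control 1 was the shallowest library. No such count is given for another library, so they have no background.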
